A study of Rattus norvegicus with 9 samples.

Results

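Csrp2, Pdlim1, Acta2, Tagln and Vim, 5 genes for LIM domain and cytoskeletal proteins, were followed over 9 rat arrays from cultured sympathetic neurons. Every probe set annotated to 1 of these genes alone was taken, which gave 5 of the 4736 genes with a probe set of their own and 8 of the 8740 non-control probe sets tested: 1 each for Csrp2, Pdlim1 and Vim, 2 for Tagln and 3 for Acta2. Csrp2 and Pdlim1 were chosen by their lower values after 24 hr of bone morphogenetic protein-7 (BMP-7), so their 24 hr differences are given as a description with no test. Acta2, Tagln and Vim were added to ask whether other cytoskeletal genes of smooth muscle and mesenchymal cells were lower too.

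Neurons were dissociated from superior cervical ganglia of embryonic day 21 Holtzman rats and grown with 100 ng/ml nerve growth factor. Cytosine arabinoside, an inhibitor of DNA synthesis that kills dividing cells, was present for 48 hr to reduce non-neuronal cells. BMP-7 was added on day 5 in culture at 50 ng/ml. There were 3 arrays of untreated cultures (control), 3 after 6 hr (BMP6h) and 3 after 24 hr (BMP24h), each from pooled cultures, and all RNA was isolated on the same day in culture. Replicate 1 of every group was hybridised in one batch with 10 µg of cRNA and replicates 2 and 3 in another with 5 µg. All values are log2 intensities from which the authors had removed the batch means, and levels of different probe sets are not compared with one another.

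LIM domains are zinc-binding modules that hold proteins together. Csrp2, also called SmLIM, is built of LIM domains joined by short glycine-rich stretches, binds the actin crosslinker alpha-actinin and is best known from vascular smooth muscle, whereas Pdlim1 couples a PDZ domain to a LIM domain and sits with alpha-actinin on stress fibres. Acta2 is the actin of smooth muscle and Tagln (SM22) binds actin filaments there, and both are classical targets of serum response factor, which binds the CArG box. Vim is the intermediate filament protein of mesenchymal cells and is also found in young neurons and glia. BMP-7 belongs to the transforming growth factor beta family, whose receptors act through Smad proteins.

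Csrp2 was lower after 24 hr of BMP-7 and not after 6 hr. Its level was 10.07, 9.81 and 10.17 on the control arrays, 9.92, 9.88 and 10.09 on the BMP6h arrays, and 8.76, 8.70 and 8.84 on the BMP24h arrays. All 3 BMP24h arrays lay below the other 6, while BMP6h and control overlapped. The mean was 10.02 ± 0.18 (SD, n = 3) in control, 9.96 ± 0.11 (n = 3) at 6 hr and 8.77 ± 0.07 (n = 3) at 24 hr. The difference between BMP24h and control was -1.25 ± 0.14 on the log2 scale (SE), or 2.38-fold lower, with a 95% interval from -1.57 to -0.93. In the order of all 8740 probe sets by this difference, Csrp2 was the 10th lowest, and against BMP6h, where it differed by -1.20, it was the 3rd lowest. RefSeq also lists a Csrp2 pseudogene, and whether the probe set matches it was not tested. The 6 hr difference from the same control arrays was -0.05, with a 95% interval from -0.37 to 0.26 and an adjusted p of 0.942 (limma). RNA came from whole cultures, so fewer cells of a type and less RNA per cell cannot be told apart here.

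Pdlim1 was lower at 24 hr by a smaller amount. Control arrays gave 8.48, 8.52 and 8.71, BMP6h arrays 8.43, 8.21 and 8.52, and BMP24h arrays 8.06, 7.97 and 8.02. The BMP24h arrays again lay below the other 6, and the BMP6h values overlapped those of control. The means were 8.57 ± 0.12, 8.39 ± 0.16 and 8.02 ± 0.05 (SD, n = 3 each) in control, BMP6h and BMP24h. The 24 hr difference was -0.55 ± 0.13 (SE), or 1.47-fold lower, which placed Pdlim1 194th from the lowest of all probe sets, and the difference from BMP6h was -0.37. At 6 hr the difference from control was -0.18, with a 95% interval from -0.49 to 0.12 and an adjusted p of 0.887.

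**Figure D1:**
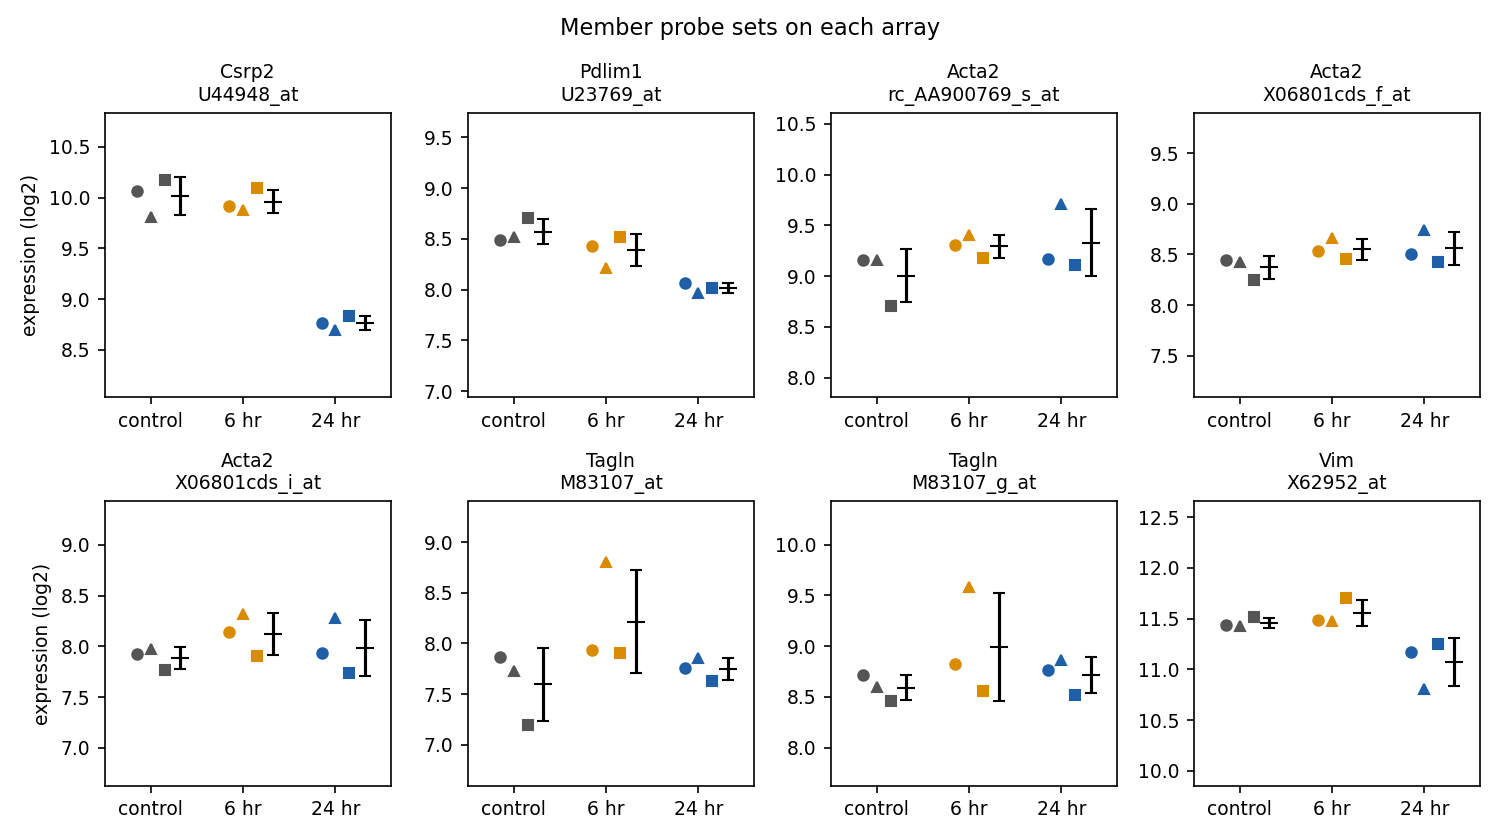
Log2 level of each of the 8 probe sets on every array, 1 panel a probe set, in control, BMP6h and BMP24h (circle, triangle and square for replicates 1, 2 and 3, bars for the mean ± SD, n = 3). The vertical axes start at different levels and span the same range. The BMP24h points of Csrp2 (8.70 to 8.84), Pdlim1 (7.97 to 8.06) and Vim (10.81 to 11.25) lie below all 6 other points of their panels, and those of Acta2 and Tagln overlap control.

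Vim was the other gene with every BMP24h array below all control and BMP6h arrays. Its level was 11.43, 11.43 and 11.51 in control, 11.49, 11.48 and 11.70 in BMP6h, and 11.17, 10.81 and 11.25 in BMP24h. The 24 hr difference from control was -0.38 ± 0.15 (SE, n = 3 a group), or 1.30-fold lower, with a 95% interval from -0.73 to -0.03. It did not pass the adjustment over all probe sets in limma, with an adjusted p of 1 (0.0360 before adjustment). Without BMP24h replicate 2, its lowest array, the difference was -0.24. With the arrays weighted by their spread it was -0.26 with an adjusted p of 0.0146, but the estimation of those weights stopped before it converged. Against BMP6h, Vim differed by -0.48 ± 0.15 (SE) with an adjusted p of 0.939. At 6 hr Vim differed from control by 0.10, with an interval from -0.26 to 0.45 and an adjusted p of 0.918.

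Acta2 was not lower at 24 hr on any of its 3 probe sets. The brightest, rc_AA900769_s_at, gave 9.15, 9.16 and 8.70 in control, 9.31, 9.40 and 9.18 in BMP6h, and 9.17, 9.71 and 9.11 in BMP24h. Every BMP6h array lay above every control array, and BMP24h overlapped control. The 24 hr difference was 0.32 ± 0.21 (SE), with a 95% interval from -0.16 to 0.81 and an adjusted p of 1. The other Acta2 probe sets differed by 0.19 (X06801cds_f_at, interval from -0.13 to 0.50) and 0.09 (X06801cds_i_at, interval from -0.33 to 0.51) at 24 hr. At 6 hr the 3 probe sets differed from control by 0.29, 0.18 and 0.24, with the BMP6h arrays of the first pair above control and those of the last overlapping it. None of these passed the adjusted test (adjusted p of 0.887 for rc_AA900769_s_at), and the intervals all included 0. Actin genes are close copies of one another, so the share of these signals that comes from Acta2 is uncertain. The lower ends of the 24 hr intervals lay at -0.16, -0.13 and -0.33, above the differences of Csrp2 (-1.25) and Pdlim1 (-0.55). The 24 hr interval of Pdlim1 itself ran from -0.86 to -0.25 and overlapped that of X06801cds_i_at. Csrp2 and Pdlim1 were chosen for their low values, so this is a description and no test of a shared change.

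Tagln was also not lower at 24 hr than in control. On M83107_at, control arrays gave 7.86, 7.73 and 7.19, BMP6h arrays 7.94, 8.81 and 7.90, and BMP24h arrays 7.76, 7.85 and 7.63. On M83107_g_at the same arrays gave 8.71, 8.60 and 8.46, then 8.82, 9.59 and 8.56, and then 8.76, 8.86 and 8.52. BMP24h overlapped control on both, and the highest value of each probe set was that of BMP6h replicate 2. The 24 hr differences were 0.15 (95% interval from -0.50 to 0.81) and 0.13 (interval from -0.48 to 0.73), each with an adjusted p of 1. At 6 hr M83107_at was above control on every array, by 0.62 ± 0.28 (SE, interval from -0.03 to 1.27, adjusted p of 0.887), and M83107_g_at differed by 0.40 with overlapping arrays. Without BMP6h replicate 2 these differences were 0.30 and 0.07. That array stood apart over the whole table, where 9.99% of probe sets differed from the mean of its fellow replicates by over 1 on the log2 scale, against at most 4.21% for any other array.

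**Figure D2:**
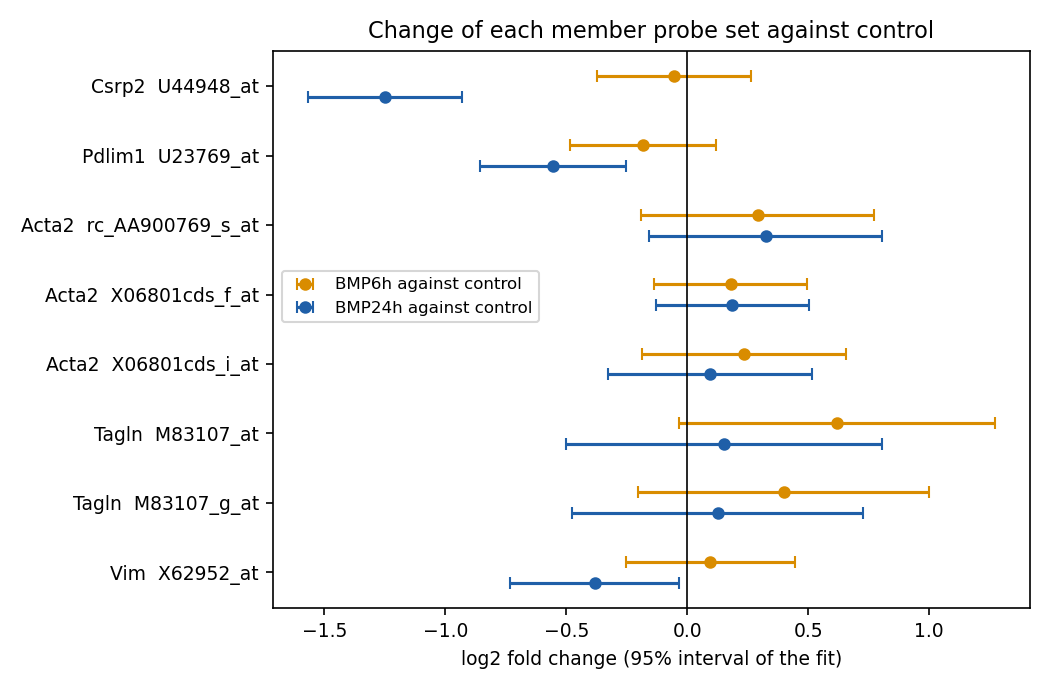
Log2 difference of each probe set with its 95% interval (limma) against control at 6 hr (upper bar of each pair) and at 24 hr (lower bar). The 24 hr intervals of Csrp2, Pdlim1 and Vim lie below 0, those of Acta2 and Tagln include 0, and every 6 hr interval includes 0. Csrp2 and Pdlim1 were chosen by their 24 hr values, so their 24 hr intervals are descriptions.

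Among the 6 probe sets of Acta2, Tagln and Vim, 0 passed an adjusted p under 0.05 in any of the 3 comparisons (limma). Over all 8740 probe sets, 0.217% passed in BMP24h against control, 0.0458% in BMP6h against control and 0% in BMP24h against BMP6h. At an unadjusted p under 0.05, Vim alone passed among the 6, in BMP24h against control and against BMP6h, and an ordinary two-way analysis of variance without limma's shared variance gave the same counts of 1, 0 and 1. At the thresholds used in the study, an unadjusted p under 0.05 with a fold of at least 1.2, 3 of the 8 probe sets were lower at 24 hr (Csrp2, Pdlim1 and Vim), beside 1.74% of all probe sets. For Csrp2 and Pdlim1 that count restates how they were chosen. Among the 6 probe sets of the other genes it was 1 (Vim). The BMP24h arrays were all below control for 1 of the 6 (Vim), beside 7.07% of all probe sets, and all below BMP6h for 2 of the 6 (Vim and M83107_at of Tagln), beside 4.04%. Csrp2 and Pdlim1 also did not overlap in either comparison, which again restates their choice. All BMP6h arrays were above control for 3 of the 8 (rc_AA900769_s_at and X06801cds_f_at of Acta2 and M83107_at of Tagln), beside 3.65%.

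The proximal promoters of Csrp2, Pdlim1 and Vim, which had lower values at 24 hr, and of Acta2, which did not, are shown for comparison. They were taken from RefSeq (build GRCr8), from 250 bases before to 30 after the annotated start of transcription, and 4 of the 5 genes matched an entry (not Tagln). Each is printed 5′ to 3′ on the strand of the gene, with every match to the motifs below in capitals. Csrp2 lies at chr7:48235165-48235444 (plus strand), Pdlim1 at chr1:249040380-249040659 (minus strand), Acta2 at chr1:241172474-241172753 (minus strand) and Vim at chr17:81577011-81577290 (plus strand).
Csrp2: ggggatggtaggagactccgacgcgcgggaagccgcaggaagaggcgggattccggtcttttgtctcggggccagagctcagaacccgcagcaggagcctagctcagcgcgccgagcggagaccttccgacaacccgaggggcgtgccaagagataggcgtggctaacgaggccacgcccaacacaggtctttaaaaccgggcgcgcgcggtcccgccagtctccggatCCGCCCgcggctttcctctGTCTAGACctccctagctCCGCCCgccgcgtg
Pdlim1: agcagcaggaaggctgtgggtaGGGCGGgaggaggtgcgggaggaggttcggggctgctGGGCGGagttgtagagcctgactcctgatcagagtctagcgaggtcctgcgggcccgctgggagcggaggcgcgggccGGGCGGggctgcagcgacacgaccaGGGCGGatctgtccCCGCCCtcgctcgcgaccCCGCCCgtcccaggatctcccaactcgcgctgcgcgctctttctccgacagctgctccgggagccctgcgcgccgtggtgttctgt
Acta2: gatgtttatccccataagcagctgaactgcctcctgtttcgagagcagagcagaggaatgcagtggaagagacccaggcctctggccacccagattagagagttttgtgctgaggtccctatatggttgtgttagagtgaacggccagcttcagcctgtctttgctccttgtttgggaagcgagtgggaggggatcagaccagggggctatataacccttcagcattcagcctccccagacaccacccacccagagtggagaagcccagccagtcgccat
Vim: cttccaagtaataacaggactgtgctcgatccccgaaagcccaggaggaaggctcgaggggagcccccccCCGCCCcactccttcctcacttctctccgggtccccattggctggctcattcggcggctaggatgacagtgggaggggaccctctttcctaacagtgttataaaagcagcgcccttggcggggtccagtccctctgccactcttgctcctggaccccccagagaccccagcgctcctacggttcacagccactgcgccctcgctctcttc
Matches were sought on both strands to GTCTAGAC (the palindrome bound by Smads), GGCGCC (a GC-rich Smad element), GGGCGG (the GC box) and the CArG box. GTCTAGAC was put on the list with the Csrp2 promoter in view. It occurred once in Csrp2, with its first base at position -2 from the start, in none of the other promoters shown, and in 0.197% of 33469 rat promoters of 300 bases. The GC box occurred 2 times in Csrp2, 6 times in Pdlim1, 1 time in Vim and 0 times in Acta2, beside 33.1% of all promoters with at least 1. GGCGCC was in none of the 4 windows, beside 11.0% of all promoters. The CArG box was searched strictly, as CC, then A or T only, then GG over 10 bases, and no window held it, beside 1.64% of all promoters. With at most 1 of the 10 bases off, a form not shown in capitals, Acta2 held 2 matches and the other 3 genes 0, beside 21.3% of all promoters with at least 1. A match describes these letters and no site that was measured.

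To see whether the lower values of Csrp2 and Pdlim1 were shared more widely, 6 lists of related genes were taken from textbook knowledge, with 1 probe set a gene (the brightest) and Csrp2 and Pdlim1 left out. The lists share genes, and together they held 120 measured genes. None of the 120 passed the adjusted test in any comparison (limma), and at an unadjusted p under 0.05 there were 5 lower and 2 higher in BMP24h against control. The ordinary two-way analysis of variance also passed 0 after adjustment and 8 before. At the study's thresholds the same numbers, 5 lower and 2 higher, were 4.17% and 1.67% of the 120, beside 2.05% lower and 1.77% higher of all 4736 genes. The 5 lower genes were Vim, Ina, Dcn, Lum and Mgp, and the 2 higher were Egr1 and Junb.

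Of the LIM domain proteins, 19 were measured besides Csrp2 and Pdlim1, and 7 had lower and 12 higher values at 24 hr, with none past either threshold. Their median difference was 0.04, beside 0.01 over all genes. The lowest was Lhx1, a LIM homeodomain transcription factor, at -0.41 (-0.15 without control replicate 3), and the highest was Pdlim3 (ALP), the relative of Pdlim1 in muscle Z-discs, at 0.78 (0.43 without BMP24h replicate 3). Pdlim3 gave 5.87, 5.75 and 5.81 in control and 6.28, 6.25 and 7.23 in BMP24h, so its groups did not overlap, in the opposite direction to Pdlim1. Prickle2, a planar polarity protein, differed by 0.52 and Fhl2, a LIM-only cofactor of transcription, by 0.30, both without overlap, and Prickle2 differed by 0.30 without control replicate 3. Csrp1, the closest relative of Csrp2 on the list, differed by -0.18 and Limk1, a kinase of cofilin, by -0.30. Csrp3, another relative of Csrp2, differed by 0.14 with overlapping arrays. Pdlim3, Prickle2 and Fhl2 lay above control without overlap and another 3, Lhx1, Limk1 and Csrp1, below it, beside 5.95% and 7.69% of all genes.

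Of the smooth muscle contractile genes, 16 were measured besides Csrp2, with 5 lower and 11 higher values, a median of 0.06 and none past either threshold. Of the 16, 2 (Itga7 and Csrp1) lay below control without overlap and 0 above it, beside 7.69% and 5.95% of all genes. Myh11, the smooth muscle myosin heavy chain, was lowest at -0.39 on its brightest probe set (-0.13 without BMP24h replicate 3 and -0.18 without control replicate 3), with -0.81 and 0.16 on the others. The laminin receptor subunit Itga7 followed at -0.29, with -0.06 and 0.16 on its others. Acta2 was highest at 0.32, then Cnn1 (calponin, which binds actin and myosin) at 0.27 and Des (desmin, the muscle intermediate filament) at 0.18. Without control replicate 3 these were 0.16 for Acta2, -0.22 for Cnn1 and 0.0168 for Des. The 39 actins and actin filament proteins split into 19 lower and 20 higher, with a median of 0.00. Of the 39, 2 lay below control without overlap and 1 above it, beside the same shares. Among them were Tmod2, a neuronal cap of filament pointed ends, at -0.64 (-0.10 without control replicate 3), Msn (moesin, which ties actin to the membrane) at -0.24 (-0.0772 without BMP24h replicate 1), the cardiac actin Actc1 at 0.31 (0.0041 without control replicate 3) and the myosin light chain Myl12a at 0.31.

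The serum response factor targets, 25 genes without Csrp2, had 9 lower and 16 higher values and a median of 0.13. Of the 25, 1 lay below control without overlap and 4 above it, beside 7.69% and 5.95% of all genes. The pair past the study's thresholds were immediate early genes, and both were higher, beside 1.77% of all genes. Egr1, a zinc finger transcription factor, gave 9.33, 9.09 and 9.64 in control, 8.66, 8.20 and 9.31 in BMP6h, and 10.67, 9.95 and 11.14 in BMP24h. Its 24 hr difference was 1.24 ± 0.37 (SE, adjusted p of 0.734), and its other probe sets differed by 1.05, 0.76 and 0.06. Junb, a subunit of AP-1, gave 7.90, 7.80 and 8.14 in control, 8.59, 8.68 and 8.28 in BMP6h, and 8.29, 8.41 and 8.25 in BMP24h. Its 24 hr difference was 0.37, and its other probe set gave -0.03. At 6 hr Junb differed from control by 0.57 (adjusted p of 0.887, limma), whereas Egr1 differed by -0.63 with overlapping arrays. Pdlim5, another PDZ and LIM protein, differed by -0.25 on this list.

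**Figure D3:**
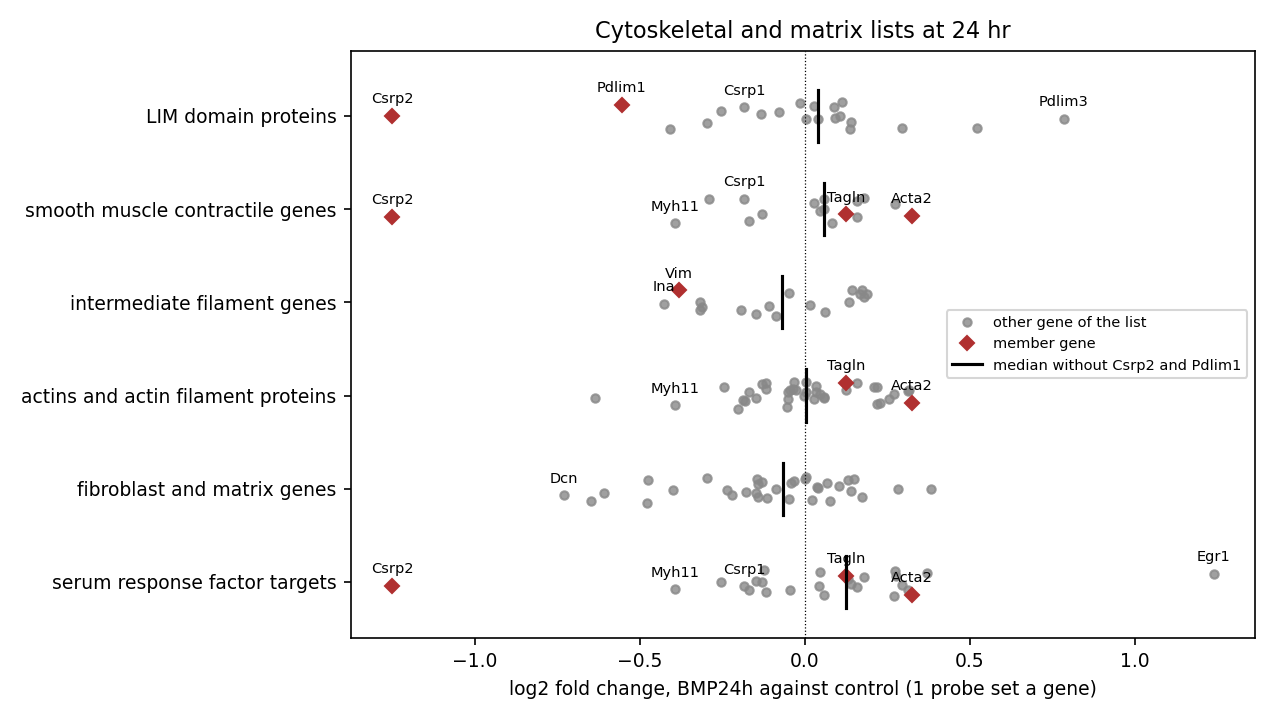
Log2 difference at 24 hr for every measured gene of the 6 lists (1 probe set a gene), 1 row a list, with the member genes as diamonds and a vertical bar at each list's median without Csrp2 and Pdlim1. Genes on several lists appear in each row. Csrp2 (-1.25) is the lowest point of its 3 rows, Egr1 (1.24) is the highest of its row, and the list medians lie between -0.07 and 0.13.

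The 18 intermediate filament genes held 10 lower and 8 higher values, beside 47.8% lower over all genes, with a median of -0.07. Of the 18, 3 lay below control without overlap and 0 above it, beside 7.69% and 5.95% of all genes. Ina and Vim were lower past the study's thresholds, beside 2.05% of all genes. Ina (alpha-internexin, a filament protein of neurons) gave 11.46, 11.44 and 11.62 in control, 11.23, 11.31 and 11.48 in BMP6h, and 11.23, 11.02 and 10.98 in BMP24h. Its difference was -0.43 ± 0.13 (SE, adjusted p of 0.786), and its other probe set gave -0.46. Krt10, Nes and Krt18 had no settled direction. Krt10 gave -0.32 on its brighter probe set and 0.10 on the other, and Nes (nestin, of neural precursors) gave 0.17 and -0.49. Krt18 gave 0.19, which was -0.0197 without control replicate 3.

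The 34 fibroblast and matrix genes held 21 lower and 13 higher, beside 47.8% lower over all genes, with a median of -0.07. At the study's thresholds 3 were lower and 0 higher, beside 2.05% and 1.77% of all genes. Dcn (decorin, a small proteoglycan on collagen) gave 9.70, 9.60 and 10.02 in control, 9.41, 9.16 and 9.60 in BMP6h, and 9.10, 8.98 and 9.06 in BMP24h. Its difference was -0.73 ± 0.17 (SE, adjusted p of 0.324), with -0.82, -0.68 and -0.01 on its other probe sets. Lum (lumican, a relative of decorin) gave 8.51, 8.23 and 9.03 in control and 8.20, 7.72 and 7.91 in BMP24h, a difference of -0.65 ± 0.23 with an adjusted p of 1. Mgp (matrix Gla protein, an inhibitor of calcification) gave 12.01, 12.12 and 12.09 in control and 11.73, 11.77 and 11.27 in BMP24h, a difference of -0.48 ± 0.16 with an adjusted p of 0.972. In each of these 3 genes the BMP24h arrays lay below control. Of the 34, 8 lay below control without overlap and 0 above it, beside 7.69% and 5.95% of all genes. Without control replicate 3 the differences were -0.59 for Dcn, -0.41 for Lum and -0.47 for Mgp, and without BMP24h replicate 3 that of Mgp was -0.31. The receptor Pdgfra gave -0.61 on its brightest probe set (-0.35 without control replicate 3) and 0.26, 0.09 and -0.01 on the others. The highest values were those of the protease Plau at 0.38, elastin (Eln) at 0.28 and the gelatinase Mmp2 at 0.17. Plau turned to -0.17 without control replicate 3 and Mmp2 to -0.0213 without control replicate 2, while Eln ranged from 0.17 to 0.42 with 1 array left out. The study's own table of downregulated genes, made by a test across all conditions, holds Loxl1 (on another probe set) and Timp2. On the probe sets used here Loxl1 differed by -0.40 and Timp2 by -0.13 at 24 hr.

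Markers of the cell types that such cultures can hold were read on the same arrays, as the log2 of their summed linear level. The sum over 12 fibroblast markers was 13.23 to 13.35 in control, 13.16 to 13.34 in BMP6h and 12.68 to 13.07 in BMP24h. At 24 hr it thus lay below every other array, as Csrp2, Pdlim1 and Vim did. Such a sum is weighted to the brightest probe sets, here Mgp (control mean 12.07), already named above as lower. The mean log2 level of the 12 weighs them alike. It was 8.67 to 8.87 in control, 8.66 to 8.80 in BMP6h and 8.29 to 8.54 in BMP24h. Of the 12, 9 had lower values at 24 hr, beside 47.8% of all genes, and 6 lay below control without overlap, beside 7.69%. All 12 are also on the fibroblast and matrix list, with the same probe sets. These counts and levels therefore restate part of the values above and are no separate support. Pdgfra, 1 of the 6, differed little or upward on its other probe sets, as given above. The collagen Col3a1 differed by -0.47, with its BMP24h arrays below control, while the collagens Col1a1 and Col1a2 differed by 0.08 and 0.00. Pdgfrb differed by 0.00. The part of fibroblast RNA in the lower values of Csrp2, Pdlim1 and Vim was not tested. The sum over 10 smooth muscle and pericyte markers, which included Acta2 and Tagln, was 10.99 to 11.16 in control, 11.09 to 11.41 in BMP6h and 11.13 to 11.47 in BMP24h. The sum over 16 neuron markers was 16.03 to 16.10, 16.02 to 16.09 and 15.98 to 16.12 in the same order. For 12 markers of satellite glia and Schwann cells it was 12.40 to 12.65, 12.47 to 12.53 and 12.45 to 12.61. That sum was set mostly by Pmp22 (control mean 12.03), so it says little about the other glial markers. Endothelial markers (6 genes) gave 9.86 to 10.13, 9.74 to 9.95 and 9.89 to 9.93, and macrophage and blood markers (14 genes) gave 11.11 to 11.24, 11.10 to 11.41 and 11.01 to 11.35. Apart from the fibroblast list, the BMP24h range of each list overlapped that of control, for the sum and for the mean log2 level. Single genes on these lists could still be lower. At the study's thresholds the neuron marker Ddc (-0.45, arrays below control) and the endothelial marker Kdr (-1.39, arrays overlapping control) were lower at 24 hr. On each of these lists that was 1 gene lower and 0 higher, beside 2.05% and 1.77% of all genes.

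**Figure D4:**
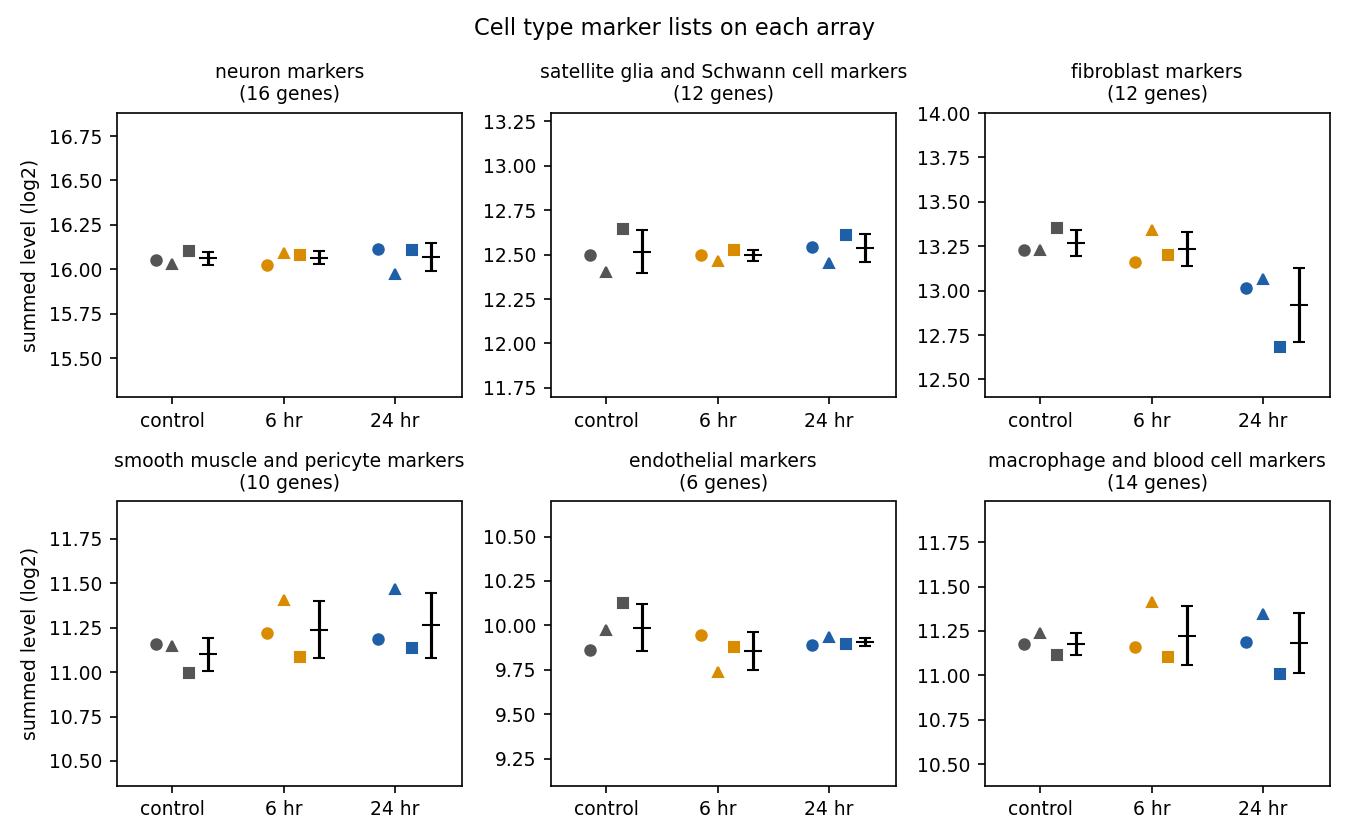
Log2 of the summed level of each marker list on every array, 1 panel a list, in control, BMP6h and BMP24h (symbols for replicates, bars for the mean ± SD, n = 3, and vertical axes of the same span). The fibroblast sum is 12.68 to 13.07 in BMP24h and at least 13.16 on the other arrays, and the other 5 lists overlap between BMP24h and control.

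The probe sets with the pattern most like Csrp2 over the 9 arrays were sought among 3866 that name 1 gene and vary by an SD of at least 0.2. Because the arrays share the treatment groups, these correlations mainly restate the 24 hr difference and are given with no test. Egln3, a prolyl hydroxylase that marks hypoxia-inducible factor, had r = 0.98 with Csrp2 and differed by -1.17 at 24 hr and -0.16 at 6 hr. Grm7, a metabotropic glutamate receptor, also had r = 0.98 and differed by -0.93 and -0.09. The apoptosis regulator Bok, the microtubule protein Mapt (tau) and the receptor adaptor Grb10 followed with r = 0.97 each, at -0.39, -0.51 and -0.53. The closest to Pdlim1 were the calcium-binding protein Calb1 (-0.80), Dcn, and the phosphodiesterase Pde4b (-0.70), with r = 0.97 each, then Grm7 and the monoamine oxidase Maob (-0.80), with r = 0.95 each. None of these 9 genes is a LIM domain or contractile protein, and Dcn is also on the fibroblast lists.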

How the data were processed

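RNA of 9 samples was hybridised to Affymetrix Rat Genome U34 arrays. The deposited values are log2 intensities: per the labels and the study's methods, the authors normalised them by robust multi-array averaging in Partek and removed the processing batch, so the batch means differ by at most 6.7e-05. Leaving out 59 controls from 8799 probe sets left 8740 to test, of which 7006 name 1 gene in the platform annotation, 308 several and 1426 none.

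Condition and batch were fitted over all 9 arrays with limma 3.58.1 (R 4.3.3), and p-values were adjusted by Benjamini-Hochberg over the 8740. Csrp2 and Pdlim1 have no test at 24 hr. Replicates came from 3 independent dissections per the study's methods, but nothing in the labels ties a replicate number to a dissection. The number of arrays limits the precision, and depth does not apply. The members and lists were chosen with earlier results of these data known. Named genes are the members, list genes past either threshold, the 3 highest and 3 lowest of each list at 24 hr, and the 5 most like Csrp2 and Pdlim1. The fit was tested on simulated data. Naming Csrp1, Csrp3, Limk1, Col1a1, Col1a2, Col3a1, Loxl1, Timp2, Pdgfrb, Pmp22, Ddc and Kdr came after seeing their values.

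Alternatives were each array left out, either batch alone, the replicate number as a block, the fit without batch, repeated quantile normalisation, median centring, a filter on dim probe sets, only the compared groups, ordinary or trended variances, another rule for the probe set of a gene, the study's thresholds and, chosen after seeing the data, array weights.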

Additional observations from a re-analysis of the deposited data

How the results depend on the processing

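Each member result was recomputed under 20 alternatives. Csrp2 and Pdlim1 were lower at 24 hr in all of them, Csrp2 from -1.36 to -1.17 and Pdlim1 from -0.62 to -0.42 (-0.42 on the batch 1 arrays alone, -0.43 with array weights). With 1 array left out at a time, the 24 hr differences ran from -1.36 to -1.17 for Csrp2, -0.62 to -0.48 for Pdlim1, 0.12 to 0.45 for Acta2 rc_AA900769_s_at, -0.0696 to 0.23 for Acta2 X06801cds_i_at (below 0 without BMP24h replicate 2), -0.0685 to 0.35 for Tagln M83107_at (below 0 without control replicate 3) and -0.48 to -0.24 for Vim. Csrp2 at 6 hr ran from -0.17 to 0.0294 (above 0 without control replicate 3). Against BMP6h, Acta2 rc_AA900769_s_at ran from -0.17 to 0.16, X06801cds_f_at from -0.0924 to 0.0794 and Tagln M83107_g_at from -0.51 to 0.0527 (above 0 without BMP6h replicate 2). Batch 1 alone, 1 array a group with no test, gave 0.015 for Acta2 rc_AA900769_s_at and -0.11 for Tagln M83107_at at 24 hr, and -0.14 and -0.0244 for Acta2 rc_AA900769_s_at and X06801cds_f_at against BMP6h.

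Array weights, chosen after seeing the data, gave the batch 1 arrays weights of 4.27 to 34.2 and the others at most 1.09, and their estimation stopped before it converged. Under them Vim was -0.26 (adjusted p of 0.0146), Acta2 X06801cds_i_at -0.0083 and Tagln M83107_at -0.0769 at 24 hr, and Acta2 rc_AA900769_s_at -0.12 and X06801cds_f_at -0.0193 against BMP6h. Of the 120 list genes, 17 were called lower and 9 higher at 24 hr, 2 higher at 6 hr, and 22 lower and 17 higher against BMP6h, where the fit without weights called 0. The study's thresholds called 5 lower and 2 higher at 24 hr, 1 lower (Dcn) and 2 higher (Col1a1 and Junb) at 6 hr, and 1 lower (Vim) and 4 higher (Egr1, Fhl2, Pdlim3 and Prickle2) against BMP6h.

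Deviations of samples with the same replicate number correlated from -0.74 to 0.532. With the batch means removed, the replicate 1 deviations of the 3 groups sum to about 0. Their correlations (-0.215, -0.74 and -0.498) therefore could not decide on pairing. Those of replicates 2 and 3 ran from -0.083 to 0.532, and not every sample correlated best with its own number. The labels tie no replicate number to a dissection, so the samples were not treated as pairs, and pairing by dissection was not tested. Replicate 1 of each group also shares the batch. The replicate block in place of the batch called 1 list gene higher at 24 hr and 1 against BMP6h. The cause of these changes was not tested. Of the named list genes, Cnn1, Krt18 and Plau changed sign without control replicate 3 and Mmp2 without control replicate 2. The probe sets carry no detection call.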

Other observations

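Another 4 probe sets are annotated to Acta2 and Actc1 together and were left out of the counts. Their 24 hr differences from control were 0.09, 0.07, -0.07 and 0.09, and their 6 hr differences 0.25, -0.13, 0.01 and -0.07, with overlapping arrays at 24 hr and adjusted p-values of 1 there (limma).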
